A study of Rattus norvegicus with 3 samples.

Results

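The regions described here are the Seh1 peaks of rat oligodendrocyte progenitor cells (OPC) whose nearest gene is an olfactory receptor (Olr) or a vomeronasal receptor (Vom1r or Vom2r). They were chosen by gene name alone, as the rows of the authors' deposited annotation whose symbol is Olr, Vom1r or Vom2r followed by digits. There were 162 such peaks among 9084 annotated OPC peaks, at 126 genes. The Olr family had 110 of them at 91 genes, Vom1r 16 at 12 genes and Vom2r 36 at 23 genes.

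Seh1 is a protein of the nuclear pore complex, and its binding to chromatin was profiled by immunoprecipitation and sequencing (ChIP-seq). OPC came from the forebrain of Sprague Dawley rat pups at postnatal day 1 to 2 and were grown with PDGF-AA, CNTF, bFGF and NT3. Immature oligodendrocytes (iOL) were made from them by 1 day of triiodothyronine (T3) at 60 nM, with PDGF-AA, bFGF and NT3 withdrawn. Each stage had 1 Seh1 library (9117 peaks in OPC, 6704 in iOL), and the IgG control library was of iOL and is not analysed here. With 1 library per stage there is no replicate error, read depth is unknown, no test was made, and intervals are exact binomial 95% intervals that cover counting error only. Peaks of 1 gene cluster share their surroundings and are not independent. A peak list holds no expression, so the cell type was not checked against markers.

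Olfactory receptors are G protein-coupled receptors of olfactory sensory neurons, each of which expresses a single receptor gene and keeps the rest in compact heterochromatin. Vom1r and Vom2r receptors serve the vomeronasal organ, which detects pheromones. The genes lie in tandem arrays that grew by duplication. Most have their whole coding sequence in 1 exon, except Vom2r genes, whose long extracellular domain spans several exons. Outside sensory epithelia these genes are mostly silent.

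The sequences below show the gene whose peak lies nearest to its start, Olr1111, and a near-identical gene pair, Olr1197 and Olr1198, whose 3 peaks cannot be given to one gene or the other. They are RefSeq windows of GRCr8, from 250 bases before to 50 after the annotated start, and capitals mark the start codon at position 251, counted from 1 at the 5′ end. In the Olr1197 and Olr1198 windows a capital also marks the position at which they differ.
Olr1111 (GRCr8, chr7:131523415-131523714, plus strand): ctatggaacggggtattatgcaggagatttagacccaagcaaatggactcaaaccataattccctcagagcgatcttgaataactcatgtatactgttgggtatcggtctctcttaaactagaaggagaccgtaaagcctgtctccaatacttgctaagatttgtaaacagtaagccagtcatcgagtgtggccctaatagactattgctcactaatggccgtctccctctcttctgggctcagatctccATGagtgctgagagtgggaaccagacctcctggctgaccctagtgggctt
Olr1197 (GRCr8, chr8:45740602-45740901, plus strand): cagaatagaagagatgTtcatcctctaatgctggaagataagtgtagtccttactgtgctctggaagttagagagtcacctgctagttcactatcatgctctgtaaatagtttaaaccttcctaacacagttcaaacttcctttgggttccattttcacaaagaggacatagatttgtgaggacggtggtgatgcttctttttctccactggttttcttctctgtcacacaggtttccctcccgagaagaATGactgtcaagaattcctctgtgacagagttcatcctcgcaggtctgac
Olr1198 (GRCr8, chr8:45763847-45764146, plus strand): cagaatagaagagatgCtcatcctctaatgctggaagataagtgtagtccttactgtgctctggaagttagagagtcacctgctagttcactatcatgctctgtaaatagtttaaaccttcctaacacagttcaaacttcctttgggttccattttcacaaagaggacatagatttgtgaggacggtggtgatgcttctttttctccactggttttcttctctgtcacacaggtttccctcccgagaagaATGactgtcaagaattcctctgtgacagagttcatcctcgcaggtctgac

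The annotated start of a receptor gene is mostly its start codon. Of the 109 member genes with a RefSeq window, 101 (92.7%) had ATG at the annotated start, against 10.5% of 27457 windows of all genes. For Olr genes it was 74 of 75, for Vom1r 8 of 11 and for Vom2r 19 of 23. Distances to a transcription start site (TSS) given here for receptor genes are therefore mostly distances to a start codon, and upstream noncoding exons are not part of these gene models.

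The 300-base windows were searched on both strands for CCCNNGGG (the core bound by EBF factors, which act at olfactory receptor promoters), TAATTA (a homeodomain core) and TATAAA (the TATA box). TAATTA was present in 26 of 109 member windows (23.9%) against 5.35% of all windows. TATAAA was in 34.9% against 14.3%. CCCNNGGG was in 3.67% against 12.7%, with 1 of 75 Olr windows, 0 of 11 Vom1r windows and 3 of 23 Vom2r windows (13.0%). The median GC content was 36.7% in member windows and 52.3% in all windows, and the part of this difference in the motif shares was not tested. None of the 3 motifs occurred in the windows printed above. These letters are matches in a window, not sites. ATG stood at the annotated start in 92.7% of member windows and 10.5% of all windows. The shares therefore set sequence around start codons beside sequence around mostly other starts, and do not compare promoters.

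Few receptor genes had a peak. By the gene name table of assembly GRCr8, 91 of 1227 Olr genes with a curated transcript were the nearest gene of at least 1 OPC peak, 7.42% (95% interval 6.01 to 9.03%). The share was 11.9% of 67 Vom1r genes (5.30 to 22.2%) and 31.9% of 72 Vom2r genes (21.4 to 44.0%). Over all 18539 coding genes it was 30.1%, and over the 17173 outside these 3 families it was 31.8% (31.1 to 32.5%). Olr genes thus had the lowest share of the 3 families and the Vom2r share stood near that of other genes. The Vom1r count holds 8 of the 12 member genes, since 3 have predicted transcripts only and 1, Vom1r25, had no entry in the table. A gene in a dense array has little sequence that is nearest to its own start, and the length of that sequence was not measured, so a lower share per gene is not a lower density per length.

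**Figure D1:**
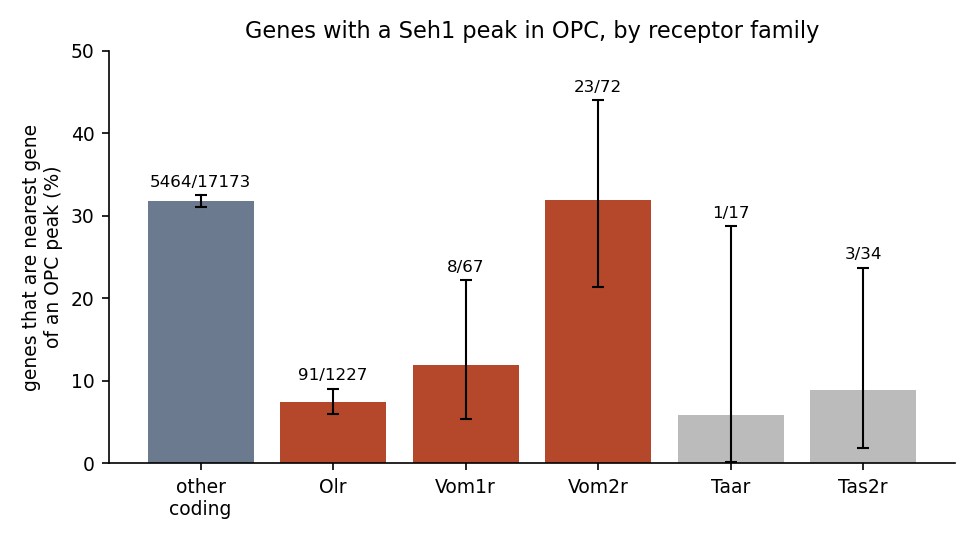
Share of genes (%, vertical axis) that are the nearest gene of at least 1 OPC peak, for coding genes with a curated transcript outside the 3 families, for the Olr, Vom1r and Vom2r families, and for the Taar and Tas2r chemoreceptors. Lines are exact binomial 95% intervals and labels give genes with a peak over all genes; the Olr bar (7.42%) is far below that of other coding genes (31.8%), while the Vom2r bar (31.9%) is level with it.

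Other chemoreceptor families were small, and their shares varied. Trace amine receptors (Taar) had 1 gene with a peak of 17, bitter receptors (Tas2r) 3 of 34, sweet and umami receptors (Tas1r) 2 of 3, and formyl peptide receptors (Fpr) 0 of 5 (exact interval 0 to 52.2%). None of their 7 peaks lay in an annotated repeat. The nearest to a start was at -1181 bp from Tas1r1.

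Genes that transduce the signal of these receptors, or choose and traffic them, were counted on 3 short lists, beside the 30.1% of all coding genes. Of 17 genes of olfactory signalling, 8 were the nearest gene of an OPC peak (47.1%, 23.0 to 72.2%). They included Omp, the marker of mature olfactory neurons (3608 bp from its start, score 7.02), and Gnal, the olfactory G protein subunit (27.6 kb, score 6.38). Both of these peaks were annotated as intron. Adcy3, Cnga4, Cngb1, Gng13, Ano2, Pde1c, Pde4a, Grk3 and Arrb2 had no peak, and Cnga2 had its nearest at -167.2 kb. Of 18 genes of receptor choice and trafficking, 11 had a peak (61.1%, 35.7 to 82.7%). Lhx2, the LIM homeodomain factor, had one at its promoter (-259 bp, score 7.66), its cofactor gene Ldb1 one at 609 bp (score 6.38), and the stress factor gene Ddit3 one at 501 bp (score 8.30). The nearest peaks of Ebf1 and Ebf2 lay at 216.3 and 166.5 kb. Rtp1, Reep1, Ebf4, Lbr, Bptf, Ehmt2 and Cbx5 had none. Of 10 vomeronasal signalling genes, 6 had a peak (60.0%, 26.2 to 87.8%), with Plcb2 at -242 bp (score 7.02) and the G protein gene Gnao1 at 2747 bp (score 7.66). The channel gene Trpc2 had none, and neither did Gnai2, Gng8 and Gng2. Many of these genes also act in other cells, and no test was made. The intervals of the olfactory and vomeronasal signalling lists cover the share of all coding genes. That of the receptor choice and trafficking list lies above it, and the lists were chosen with earlier results of these data known.

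Receptor peaks lay almost wholly between genes: 148 of 162 were intergenic, 9 were in introns, 4 in exons and 1 at a promoter. For all annotated OPC peaks the intergenic share was 56.7%, and exons held 6.80%. The Olr peaks lay at a median of 24.8 kb from a TSS, Vom1r at 83.0 kb and Vom2r at 91.5 kb, against 34.8 kb for all. The distances ranged from 114 bp to 2891.1 kb, and 51 of the 162 lay over 100 kb away.

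The name "gene clusters" held for most of them but not all. In the gene order of GRCr8, 84 of the 125 member genes matched by ID had at least 5 receptor genes among their 10 nearest coding neighbours, and 34 had only receptor genes. The other 41 had fewer than 5, and 7 of those had none: Olr390, Olr854, Olr1637, Olr1638, Olr1666, Vom2r64 and Vom2r79. All 23 Vom2r genes are among these 41, so the 2 sets also differ in family. Neighbours were recognised as receptors by symbol or synonym. A receptor gene named otherwise was not counted, so some counts may be too low. Peaks at the first set lay at a median of 24.0 kb from the TSS (103 peaks) and peaks at the second at 57.8 kb (57 peaks).

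Only 5 receptor peaks lay within 1 kb of a start or in a coding exon. The peak nearest to a start was in the only exon of Olr1111 (rn6, chr7:140107500-140107704, score 7.02), from 12 to 216 bp past the start, so it reaches into the last bases of the window printed above. Olr1519 had an exon peak at 132 bp (rn6, chr10:61160155-61160359, score 8.30) and Olr298 one at 449 bp (rn6, chr1:212991107-212991311, score 7.66). The iOL list had no peak within 50 kb of these 3. Their scores lie at or near the median of 7.66 over all annotated OPC peaks.

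The other 2 stood at Olr1197 and Olr1198 on chromosome 8 of rn6. A promoter peak was assigned to Olr1198 (40262248 to 40262452, -481 bp, score 6.38), and 2 peaks to Olr1197, in the exon of the Olr1198 transcript at 694 bp (40263423 to 40263627, score 7.66) and in a simple repeat at 4596 bp (40267325 to 40267529, score 9.58). Subtracting the distance from the centre of each peak gives the same start, 40262831, for all 3, so on rn6 both gene names were placed on 1 start. On GRCr8 they are separate genes, and their 300-base windows differ only by T17C, which is 99.7% identity. The exon peak overlapped an iOL peak by 189 bp, and that iOL peak was 987 bp from the promoter peak and 3678 bp from the other. These 3 peaks cannot be given to Olr1197 or to Olr1198, and how reads with several equal matches were treated is not given in the sources used here.

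Besides these 5, 11 receptor peaks lay within 5 kb of a start, the simple-repeat peak of Olr1197 among them, and 9 of the 11 were in repeats. They included Olr120 (-2084 bp) and Olr1697 (2947 bp) in RatSatRep2, Olr611 (2419 bp) in RNHAL1, Olr239 (2580 bp) in L1_Rat2, Olr1673 (3345 bp) in L1_Rn and Olr1641 (3574 bp) in L1_Rat1. Olr551 lay at -4025 bp with a 7SL copy, and Vom2r40 at -2110 bp with a simple repeat. Olr1384 (-2994 bp) and Olr386 (-4893 bp) had no annotated repeat. The 9 intron peaks were all in repeats as well: RNHAL1 at Olr637, Olr1095 and Olr1500, RatSatRep2 at Olr1597, Vom2r4 and Vom2r64, LTR elements at Olr1718 and Vom2r53, and RMER1B at Vom2r49.

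Receptor peaks sat in repeats more often than OPC peaks as a whole. An annotated repeat lay at 116 of 162 receptor peaks, 71.6% (95% interval 64.0 to 78.4%), against 33.2% of all annotated OPC peaks. The shares were 70.0% of Olr, 75.0% of Vom1r and 75.0% of Vom2r peaks. The other 46 receptor peaks, outside repeats, included 3 in CpG islands, at Olr234, Olr1637 and Olr1278. Repeat labels are given only to intergenic and intron peaks, and receptor peaks are mostly intergenic. Among intergenic peaks alone the shares were 72.3% of 148 receptor peaks (64.3 to 79.3%) and 43.3% of 5006 others (41.9 to 44.7%).

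By distance, the shares stood furthest apart close to the genes. Within 20 kb of a TSS, 43 of 50 intergenic receptor peaks were in a repeat, 86.0% (73.3 to 94.2%), against 37.1% of 1132 other intergenic peaks (34.3 to 40.0%). From 20 to 100 kb the shares were 74.5% of 47 (59.7 to 86.1%) and 35.2% of 1957 (33.0 to 37.3%). Beyond 100 kb they were 56.9% of 51 (42.2 to 70.7%) and 55.2% of 1917 (53.0 to 57.5%), with the interval of the first covering the second. The share of the genome in repeats around these genes was not measured, so the values do not separate the peaks from the sequence they lie in.

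**Figure D2:**
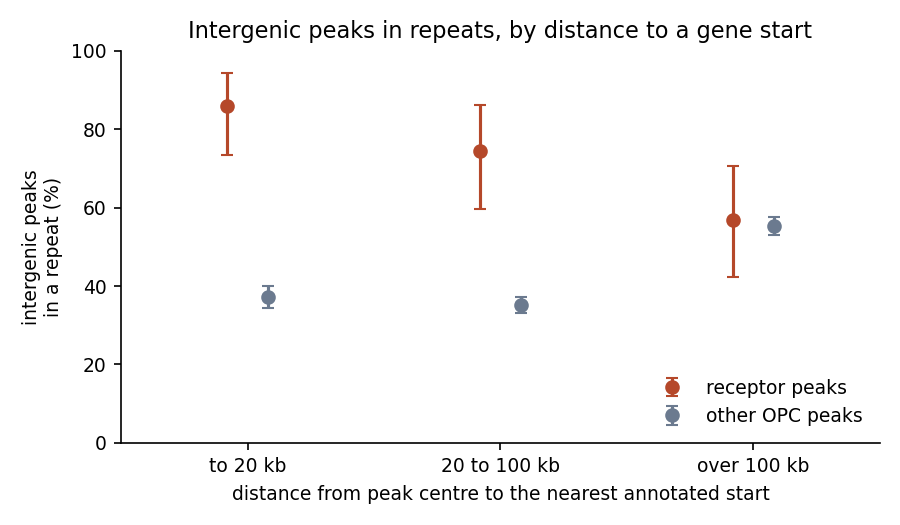
Share of intergenic OPC peaks in an annotated repeat (%, vertical axis) in 3 bins of distance from the peak centre to the nearest annotated start, for receptor peaks and all other peaks; points are shares and lines exact binomial 95% intervals. Receptor peaks fall from 86.0% to 56.9% with distance, while other peaks go from 37.1% to 55.2%, so the groups meet beyond 100 kb.

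LINE elements, which are retrotransposons that copy themselves through RNA, held 60 receptor peaks, 37.0% (29.6 to 45.0%), against 9.93% of all OPC peaks. Within them 18 peaks lay in L1_Rn and 17 in RNHAL1, both of the L1 family, 11.1% and 10.5% of receptor peaks against 2.39% and 1.86% of all. RatSatRep2, a rat repeat of unknown class in the annotation, held 24 receptor peaks, 14.8% (9.73 to 21.2%), against 3.07%. These 24 were spread over 24 genes, 12 chromosomes and 21 genomic clusters, and the L1_Rn and RNHAL1 peaks over 15 and 13 clusters. Receptor peaks were a small part of each of these repeats: 8.60% of all RatSatRep2 peaks, 8.29% of L1_Rn peaks and 10.1% of RNHAL1 peaks in OPC. The shares of all OPC peaks include exon and promoter peaks, which carry no repeat label. Among intergenic peaks alone, LINE elements held 57 of 148 receptor peaks and 678 of 5006 others, and RatSatRep2 held 21 and 213.

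LTR elements, remnants of retroviruses, held 19 receptor peaks, 11.7% (7.21 to 17.7%), an interval that covers the 7.78% of all peaks. Among intergenic peaks alone they held 17 of 148 receptor peaks and 542 of 5006 others. SINE elements, short retrotransposons, held 5, 3.09% (1.01 to 7.06%), against 5.60%, and simple repeats 3, 1.85% (0.384 to 5.32%), against 3.80%. Among the classes and repeats named here, the intervals lay above the share of all peaks for LINE, L1_Rn, RNHAL1 and RatSatRep2, and covered it for LTR, SINE and simple repeats. One of the simple repeats was the only peak of the OPC list in a (CCCTAA)n array, the telomere repeat, near the end of chromosome 1 (50287 to 50491, score 8.94), 346.3 kb upstream of Vom2r3.

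**Figure D3:**
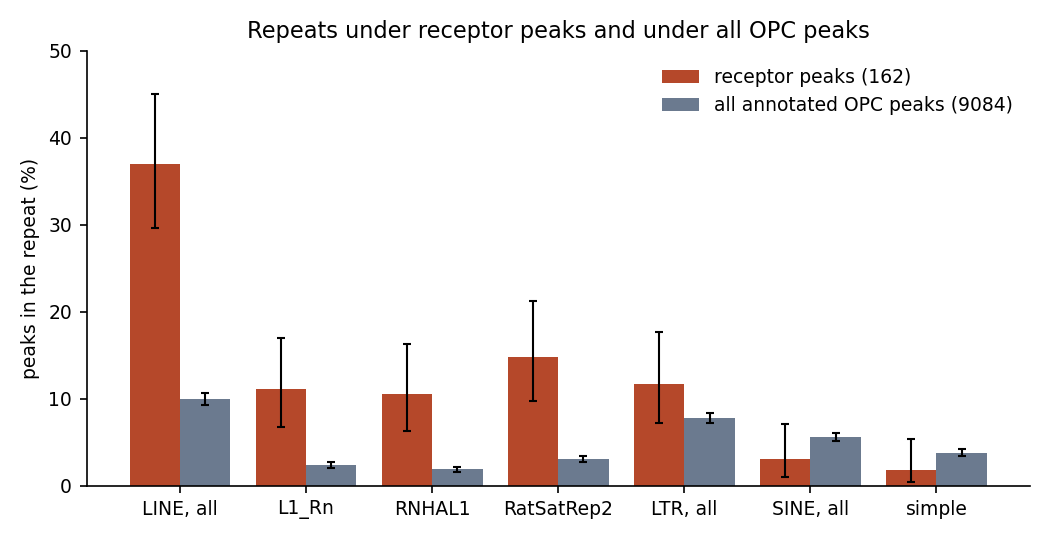
Share of peaks in each repeat (%, vertical axis) for the 162 receptor peaks and for all 9084 annotated OPC peaks; lines are exact binomial 95% intervals, and L1_Rn and RNHAL1 are part of the LINE bar. Receptor bars are higher for LINE (37.0% against 9.93%) and RatSatRep2 (14.8% against 3.07%) and their intervals cover the share of all peaks for LTR, SINE and simple repeats.

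The caller's score of a receptor peak was mostly ordinary. The median was 7.66 over the 162, with quartiles of 7.02 and 8.94 and a range of 5.75 to 33.2, beside a median of 7.66 and quartiles of 7.02 and 8.30 over all annotated OPC peaks. The upper end differed more: 23 receptor peaks, 14.2% (9.22 to 20.5%), scored 10 or more, against 5.52% of all. Of these 23, 21 lay in repeats, 10 of them in RatSatRep2 and 4 in L1_Rn. Scores of 10 or more were held by 18.1% of receptor peaks in repeats (11.6 to 26.3%) and 7.68% of other peaks in repeats. In RatSatRep2 these shares were 41.7% (22.1 to 63.4%) and 23.1%, an interval that covers the second share. They were 22.2% and 18.6% in L1_Rn, 5.88% and 12.5% in RNHAL1, and 4.35% and 4.24% outside repeats. The median was 8.94 over RatSatRep2 receptor peaks and 8.94 over the 255 other RatSatRep2 peaks. In L1_Rn it was 8.62 and 8.30, and in RNHAL1 7.02 and 7.66. Receptor peaks outside repeats had a median of 7.02, against 7.66 for other peaks outside repeats.

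The 11 highest scores reached down to a tie at 12.1. Olr551 led with 33.2 at a copy of 7SL, an RNA that helps to route secreted proteins to the endoplasmic reticulum (rn6, chr3:75024254-75024458, focus ratio 0.937). Olr321 followed with 19.8 (chr1:228445098-228445302, no annotated repeat, 30.1 kb from the TSS) and Olr1637 with 16.0 in a CpG island (chr15:27990260-27990464, 7448 bp). Olr281 had 14.0 at a copy of 7SK, the RNA that restrains the elongation factor P-TEFb (chr1:173139506-173139710). Vom2r61 had 13.4 in RatSatRep2, and Vom2r56 12.8 at a ribosomal RNA fragment (chr7:22053755-22053959). Olr395, Olr1058, Olr1697, Vom1r83 (RatSatRep2) and Olr1570 (L1_Rn) had 12.1 each. Only Olr321 and Olr1637 of these 11 lay outside repeats.

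The focus ratio, a fraction that the caller reports for how tightly reads gather at a peak, had a median of 0.750 over receptor peaks and 0.778 over all. It was 0.683 over RatSatRep2 receptor peaks and 0.679 over other RatSatRep2 peaks. The 7SL and 7SK copies at Olr551 and Olr281 stood at 0.937 and 0.958.

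**Figure D4:**
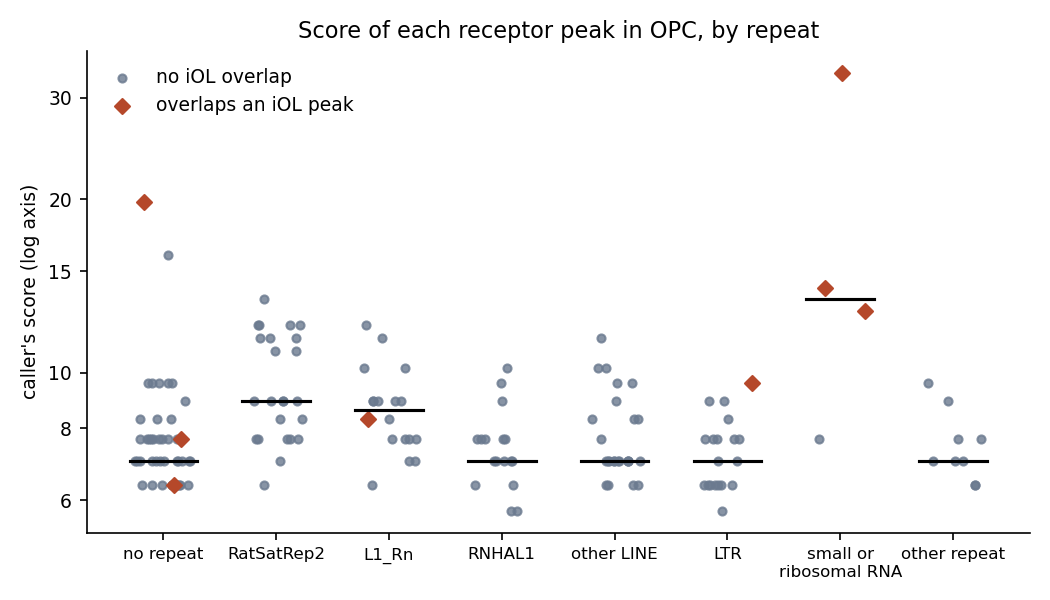
Caller's score of each of the 162 receptor peaks (log axis), by the repeat it lies in; each point is 1 peak, black lines are medians, and red diamonds are peaks that overlap an iOL peak. RatSatRep2 (median 8.94) and L1_Rn (8.62) sit above peaks with no repeat (7.02), and the 7SL copy at Olr551 (33.2) is highest.

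Receptor peaks covered 18 chromosomes, and chromosomes 1, 3 and 7 held 81 of the 162. Chromosome 1 had 32 (18 Olr, 4 Vom1r, 10 Vom2r), chromosome 7 had 25 (11, 1 and 13) and chromosome 3 had 24, all Olr. They made up 3.23%, 4.53% and 3.57% of the OPC peaks there. Chromosome 8 had 11, chromosome 10 had 9, and chromosomes 4, 11 and 15 had 8 each. Chained where neighbours lay within 1 Mb, the peaks formed 72 genomic clusters, 30 of them of 1 peak and 23 of at least 3.

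Receptor peaks lay farther from other peaks of both lists than OPC peaks did as a whole. The median gap from a receptor peak to the next OPC peak was 192.0 kb, against 64.2 kb for all OPC peaks, and the median gap to an iOL peak was 200.4 kb against 88.3 kb. At genes amid receptor genes the median gap was 159.4 kb to the next OPC peak and 237.5 kb to an iOL peak, and at genes with fewer receptor neighbours 237.5 kb and 95.7 kb. An iOL peak lay within 50 kb of 40 receptor peaks, 24.7% (95% interval 18.3 to 32.1%), against 34.9% of all annotated OPC peaks. The shares stood closer among intergenic peaks alone: 24.3% of intergenic receptor peaks (17.7 to 32.1%) and 31.9% of other intergenic peaks, an interval that covers the second share. Within 20 kb of a TSS the intergenic shares were 24.0% (13.1 to 38.2%) and 41.6%, which that interval does not cover. From 20 to 100 kb they were 27.7% (15.6 to 42.6%) and 35.7%, and beyond 100 kb 21.6% and 22.2%. By family the shares were 21.8% for Olr, 18.8% for Vom1r and 36.1% for Vom2r (20.8 to 53.8%). Of the 13 Vom2r peaks on chromosome 7, at Vom2r53, Vom2r54, Vom2r56 and Vom2r57, 10 had an iOL peak this near, and of the 23 elsewhere 3 did, 13.0%. The 3 peaks at Vom2r53 share 1 iOL peak, and 9 of the 13 lie in 1 cluster, so these peaks are not independent. At genes amid receptor genes 19 of 103 peaks had an iOL peak within 50 kb (18.4%), and at genes with fewer receptor neighbours 21 of 57 (36.8%). The latter set holds all 36 Vom2r peaks, whose share of 36.1% is close to the 36.8% of the whole set. The part of family in the difference between the 2 sets was not tested. Of receptor peaks in repeats 23.3% had an iOL peak this near (15.9 to 32.0%), and of other peaks in repeats 28.1%. Outside repeats the shares were 28.3% and 38.4%. The innermost and outermost cases at the limit were Vom2r54 at 49.8 kb and Olr550 at 57.5 kb.

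By chromosome, 12 of 25 receptor peaks on chromosome 7 had an iOL peak within 50 kb, where 39.7% of all OPC peaks did. On chromosome 1 it was 6 of 32, beside 38.5%, and on chromosome 3 it was 5 of 24, beside 36.3%. On chromosome 11, with 8 receptor peaks, it was 0, beside 26.9%. Chromosomes 8 and 15 had 3 each, chromosomes 10 and 17 had 2 each, and chromosomes 2, 4, 5, 6, 9, 13 and 19 had 1 each. Chromosomes 12, 20 and X had none.

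**Figure D5:**
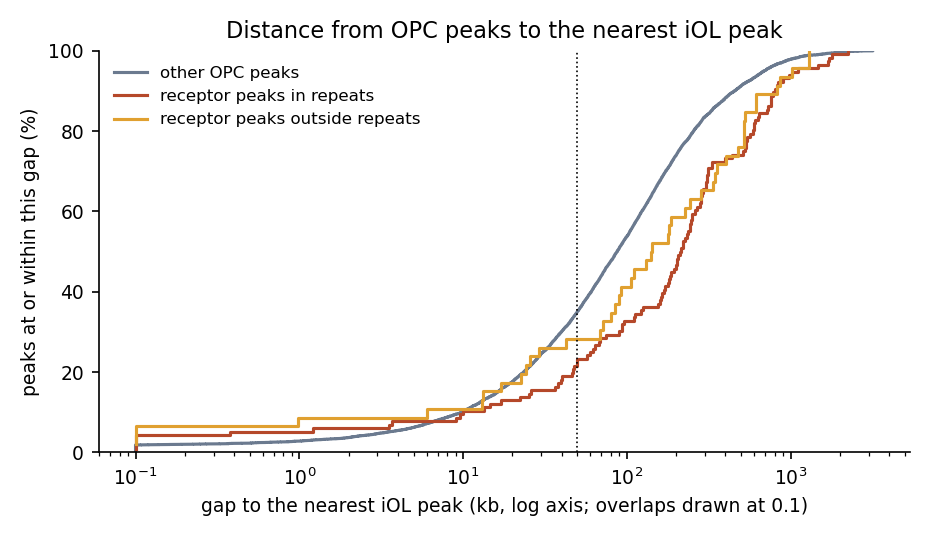
Cumulative share of OPC peaks (%, vertical axis) by the gap to the nearest iOL peak (kb, log axis; overlaps are drawn at 0.1 kb), for receptor peaks in repeats, receptor peaks outside repeats and all other OPC peaks. The dotted line marks 50 kb, where 23.3%, 28.3% and 35.1% of the 3 groups are reached.

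The largest cluster lay on chromosome 7 from 19672314 to 22889315 and held 9 peaks over 3.22 Mb. Its nearest annotated genes were Vom2r57 (6 peaks, 583.4 to 1870.6 kb away) and Vom2r56 (3 peaks, 53.9 to 1718.2 kb away), so most of these peaks lie far from any annotated start. On GRCr8 each of the 2 genes has 1 receptor gene, recognised by name, among its 10 nearest coding neighbours. Which genes lie among the peaks themselves on rn6 was not examined. The iOL list had 11 peaks inside it, 6 of the 9 OPC peaks had one within 50 kb, and 2 overlapped one.

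The next cluster held 7 peaks on chromosome 3 (74966517 to 77238230, 2.27 Mb), whose nearest genes were Olr550, Olr551, Olr582, Olr598, Olr611, Olr637 and Olr646. All 7 peaks were in repeats, and 1, at Olr551, had an iOL peak within 50 kb. Chromosome 15 had 6 peaks at Olr1637, Olr1638, Olr1641 and Olr1645 (27990260 to 29664712), of which 1 was in a repeat, with 5 peaks of other genes between them, and Olr1637 and Olr1638 are among the genes with no receptor neighbour. Clusters of 5 lay on chromosome 1 at Olr289, Olr298, Olr306 and Olr307, on chromosome 3 at Olr395, Olr404, Olr407 and Olr410, and on chromosome 8 at Olr1197, Olr1198, Olr1200 and Olr1217. The first of these had 0 iOL peaks inside its 0.463 Mb, the second 4 in 1.65 Mb and the third 2 in 0.533 Mb.

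Of the 42 clusters with 2 or more peaks, 39 held no OPC peak of another gene and 21 held no iOL peak. Together they spanned 30.7 Mb with 132 receptor peaks, 7 other OPC peaks and 53 iOL peaks. Their ends were set by OPC peaks, so the first and last counts are not a comparison of stages.

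Most genes had 1 peak (100 of 126), and 7 had 3 or more. These were Vom2r57 with 6, and Vom2r56, Vom2r53, Vom1r21, Olr411, Olr1065 and Olr1645 with 3 each. Of these 7 genes only Vom2r53 had all its peaks within 100 kb, from 31.2 to 53.6 kb, and all 3 had the same iOL peak within 50 kb. The farthest was Olr1065 at 2891.1 kb. Olr1259 was the nearest gene of 1 peak on each of 2 chromosomes, at -237.7 kb on chromosome 2 and -186.2 kb on chromosome 3, so the annotation used this name at 2 places.

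Overlap with iOL by at least 1 bp was found for 8 receptor peaks, 4.94% (95% interval 2.16 to 9.50%), beside 1.73% of all annotated OPC peaks. Among intergenic peaks it was 4.73% (1.92 to 9.5%) beside 2.06% of others, and in repeats 4.31% (1.41 to 9.77%) beside 2.96%. Both intervals cover the share of the others. Outside repeats it was 6.52% (1.37 to 17.9%) beside 1.05%, which that interval does not cover. That share rests on 3 of 46 peaks: Olr321, Olr1278 and the Olr1197 exon peak, which cannot be given to 1 gene. Olr551 shared 204 bp with its iOL peak, Olr321 191 bp, the Olr1197 exon peak 189 bp, Olr281 178 bp and Vom2r56 177 bp. Olr1278 in a CpG island shared 171 bp (score 6.38), Vom2r57 158 bp in an LTR element (score 9.58) and Olr407 110 bp in L1_Rn (score 8.30). Of the 8, 3 stand at the 7SL, 7SK and ribosomal RNA copies, and without those copies 5 of 159 were shared, 3.14%, beside 1.31% of all. None of the 24 RatSatRep2 receptor peaks overlapped an iOL peak, which allows a share of up to 12.5% at 3 counts of the total (14.2% by the exact interval), and 17 of the 255 other RatSatRep2 peaks did. None of the 16 Vom1r peaks did either, which allows up to 18.8% in the same way (20.6% by the exact interval).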

How the data were processed

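Seh1 ChIP-seq was made on 1 OPC and 1 iOL library of rat. Bowtie2 and HOMER are named without versions in the submitters' processing notes, with builds rn6 and hg18; no source used here states the peak thresholds. The authors deposited BED positions per library, 205 bp wide in OPC and 209 bp in iOL. They also deposited an annotation table recorded under iOL, which per the file headers HOMER's annotatePeaks.pl wrote on rn6 for Seh1 in OPC against IgG in iOL; its 9084 intervals all equal OPC intervals. Per the file headers it gives the caller's score, not defined there, and the focus ratio, a fraction, per peak. Rn6 sequence was not used here. Gaps and overlaps were computed with Python 3.11.15 and pandas 2.3.3, intervals with SciPy 1.17.1, and checked on simulated positions. Names, gene order and windows came from GRCr8 by gene ID.

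Members and lists were chosen with earlier results of these data known. Named were peaks overlapping iOL, the 10 highest scores with ties, peaks within 5 kb of a start or in a gene, genes with 3 or more peaks, the 6 largest clusters and the edge cases at 50 kb. Alternatives covered windows, overlap, score, repeat class, 1 peak per gene or cluster, and chaining.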

Additional observations from a re-analysis of the deposited data

How the results depend on the processing

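Of 23 alternatives, 20 left a share or median inside its 95% interval, or changed a count by at most 1.5 times. Whether a contrast with all OPC peaks reversed was not scored. The share of receptor peaks near an iOL peak moved with the window: it was 10.5% at 10 kb (10.3% of all annotated OPC peaks) and 35.2% at 100 kb (53.4% of all). A share below that of all peaks was thus seen at 50 and 100 kb and not at 10 kb. The share in repeats was 51.9% when LINE, LTR and SINE alone counted (23.3% of all). It was 74.6% with 1 peak per gene, the one nearest the TSS, and 75.0% with 1 per cluster, the one with the highest score. Receptor peaks near a TSS and those with high scores were more often in repeats, so these 2 choices were not neutral. Chaining within 500 kb gave 97 clusters and within 2 Mb 57, against 72. Settings for intergenic peaks, for peaks within 100 kb, for genes amid receptor genes and without 7SL, 7SK and ribosomal RNA copies were chosen after seeing the data. No paired analysis was possible because each stage has 1 library. Read totals are unknown, so depth limits could not be computed, and background of OPC was not measured.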
